A study of Homo sapiens with 6 samples.

Results

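The PAX family comprised the 9 human genes PAX1 to PAX9, whose H3K27ac was read from a list of 30784 peaks in clear cell sarcoma (CCS) cells. Peaks were taken as members when at least 1 base lay in the GENCODE 44 body of a PAX gene or within 50 kb of it, which gave 15 peaks (0.0487% of the list). The 9 genes are among 20033 protein-coding genes, and the 15 peaks lay at 5 of the 9. A peak was called a promoter peak of a gene when it came within 3 kb of one of its transcript starts, a distal peak lay farther than that from the start of every annotated gene, and all positions are in the hg38 build, counted from 1. Chromatin immunoprecipitation with sequencing (ChIP-seq) used an antibody against H3K27ac, an acetylated lysine of histone H3 found at active promoters and enhancers, on SU-CCS-1, an established human CCS line that carries the EWSR1::ATF1 fusion. The 6 samples were 3 precipitated with this antibody and 3 of input, which is the same kind of chromatin sequenced without precipitation, and all came from this line without any treatment named in the labels. The authors deposited 1 merged list with the position and name of each peak but no score, read count or column per sample, so the depth and the spread between replicates behind a peak are unknown and no comparison below has a replicate test. A gene without a peak was below the calling cutoff or its peak was removed afterwards, which does not show that its chromatin lacked the mark, and a peak does not tell what share of the cells carried it.

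PAX proteins are transcription factors that bind DNA through a paired domain, and some of them also hold a homeodomain. They act in the embryo as early regulators of tissue identity, in paralog pairs or groups that share expression patterns: PAX1 and PAX9 in the sclerotome and pharyngeal pouches, PAX3 and PAX7 in the dorsal neural tube, neural crest and muscle precursors, PAX2, PAX5 and PAX8 in kidney, brain, B cells and thyroid, and PAX4 and PAX6 in the pancreatic islet and, for PAX6, the eye. PAX3 is known in the melanocyte lineage as an activator of MITF together with SOX10, and CCS is known for its melanocytic features.

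A promoter peak was found for 3 of the 9 PAX genes, PAX3, PAX8 and PAX9, beside 63.4% of all protein-coding genes. With a window of 1 kb, or with starts of protein-coding transcripts only, PAX9 alone had one, while the share of all coding genes was 61.6% and 61.3%. Only PAX9 had its outermost start site inside a peak, which held for 47.9% of coding genes. PAX9 was likewise the only member whose canonical start site, that of the transcript GENCODE takes to represent the gene, lay in a peak, beside 53.5% of coding genes. PAX8 and PAX9 had 2 promoter peaks each, and 19.2% of coding genes had at least 2. A peak in the gene body was seen for PAX3, PAX8 and PAX9 (64.6% of coding genes), and 5 genes, which add PAX4 and PAX5, had a peak in the body or within 50 kb (83.1%). PAX1, PAX2, PAX6 and PAX7 had none in this range, as did 16.9% of coding genes. Of the 15 peaks, 5 were promoter peaks of a PAX gene, 8 lay at the promoter of another gene only and 2 were distal, and 6 touched a PAX gene body while 9 lay outside. The peaks were 440 to 6170 bases wide with a median of 1110, against medians of 1060 for all peaks, 1270 for all promoter peaks and 770 for all distal peaks. In all they came to 23.59 kb, at loci that span 1.551 Mb for the 9 genes, and 61.3% of these bases lay at PAX9. Peaks were counted at full width, also past the 50 kb limit, which the most downstream PAX9 peak crossed. PAX5 was the member nearest inside the 50 kb limit, at 45.2 kb from its body to the closest peak, and PAX2 the nearest outside it, at 82.31 kb.

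**Figure D1:**
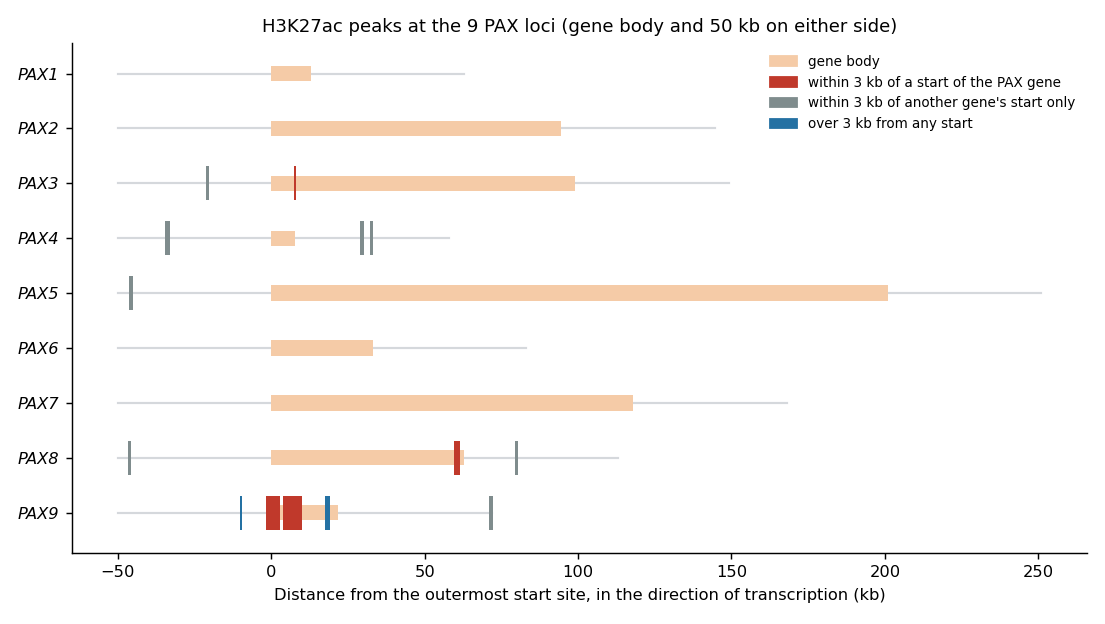
Peaks at the 9 PAX loci, with one line per gene, the distance from the outermost start site in kb on the horizontal axis in the direction of transcription, the gene body as a broad bar and each peak as an upright bar coloured by class. PAX9 carries a block of peaks at its start, PAX3 and PAX8 have narrow peaks inside the body, and PAX1, PAX2, PAX6 and PAX7 have none.

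PAX9, which directs the development of teeth, skeleton and pharyngeal pouches, had 5 peaks at its locus with 14460 bases in all, more than any other member. The gene (ENSG00000198807.13) lies on the plus strand at chr14:36657568-36679362. All 5 of its annotated start sites lay in a peak. The upstream promoter peak, chr14:36655671-36660320, was 4650 bases wide, ran from -1.9 to 2.75 kb relative to the outermost start and held 2 start sites. After a gap of 960 bases came the widest PAX peak, chr14:36661281-36667450, of 6170 bases, with 3 start sites, among them the canonical one. This peak took in exons 1 to 3 and 771 coding bases, and it was wider than 98.7% of all peaks. Each promoter peak also lay within 3 kb of a start of ENSG00000258661, and the upstream peak overlapped the bodies of ENSG00000258661 and ENSG00000283098. A peak position does not tell to which of these genes the signal belongs. The 300 bases of sequence around the outermost and the canonical start, each of which lay wholly in a peak, are printed below from RefSeq (GRCh38.p14, plus strand), with CG dinucleotides in capitals, since they are the only PAX start windows that overlapped a peak. The first window lies at chr14:36657318-36657617 and has 19 CG, and the second at chr14:36661610-36661909 with 12.
PAX9 outermost start: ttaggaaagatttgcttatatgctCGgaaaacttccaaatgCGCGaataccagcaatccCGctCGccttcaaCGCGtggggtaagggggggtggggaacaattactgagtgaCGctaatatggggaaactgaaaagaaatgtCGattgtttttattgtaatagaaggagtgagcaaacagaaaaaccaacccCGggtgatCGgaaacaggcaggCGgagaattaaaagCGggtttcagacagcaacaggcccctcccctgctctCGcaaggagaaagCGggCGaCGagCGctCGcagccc
PAX9 canonical start: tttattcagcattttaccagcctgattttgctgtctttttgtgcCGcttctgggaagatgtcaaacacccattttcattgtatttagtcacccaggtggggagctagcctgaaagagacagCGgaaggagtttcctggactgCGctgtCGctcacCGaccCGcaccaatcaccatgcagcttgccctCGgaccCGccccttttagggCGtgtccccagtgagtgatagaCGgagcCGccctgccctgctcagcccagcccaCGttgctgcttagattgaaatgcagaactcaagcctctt

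Outside the promoter peaks, PAX9 had a distal peak of 840 bases at chr14:36647231-36648070, 9.5 kb upstream of the outermost start. This peak lay in the bodies of ENSG00000258661 and ENSG00000283098. A second distal peak of 1500 bases, chr14:36675151-36676650, lay over exon 4 with 252 coding bases. A body peak away from the gene's own starts was found for PAX9 alone among the members, and for 17.9% of coding genes. The last peak, chr14:36728611-36729910, of 1300 bases, lay within 3 kb of a start site of SLC25A21, a mitochondrial carrier gene on the opposite strand, whose promoters held 2 peaks with 2170 bases in all. On the other side the neighbour NKX2-8, a homeobox gene, had no promoter peak. Taken over its length, 47.823% of the PAX9 body lay in peaks, beside 2.145% for PAX8 and 0.535% for PAX3. All 1023 coding bases of the canonical PAX9 transcript lay in peaks, a feature singled out after its values were seen, and so did the whole coding sequence of 1.83% of coding genes. For PAX8 it was 19 of 1350 coding bases, and for the other 7 members none.

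**Figure D2:**
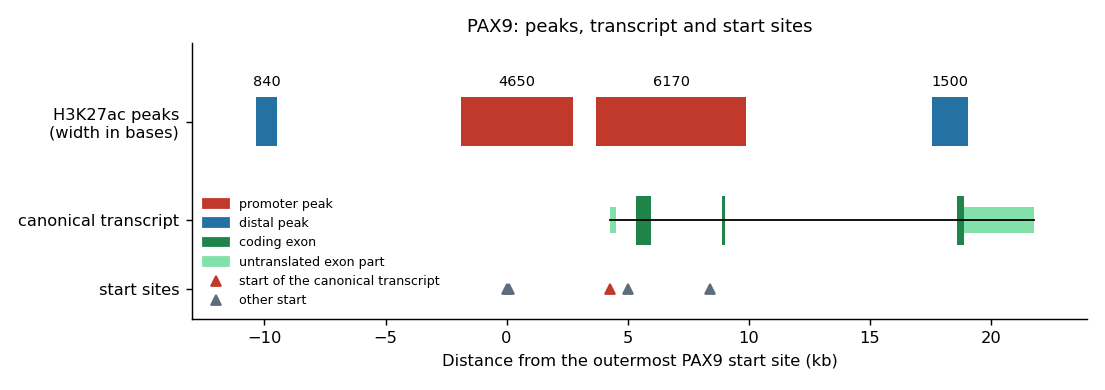
The PAX9 gene with the distance from its outermost start site in kb on the horizontal axis, peaks as bars labelled with their width in bases, exons of the canonical transcript and start sites as triangles. The peaks of 4650 and 6170 bases hold all 5 start sites, and the peak of 1500 bases lies over the last exon.

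Among the 12701 coding genes with a promoter peak, 2.17% had a widest promoter peak at least as wide as that of PAX9 and 1.74% had at least as many bases in promoter peaks, where PAX9 had 10820. The median widest promoter peak was 1600 bases. Over the whole locus, 9.71% of coding genes had more bases in peaks than PAX9, and the median coding locus held 3330 bases in 3 peaks. When peaks were joined over the stitching distance of the study's methods, the first 4 PAX9 peaks formed 1 region, chr14:36647231-36676650, with a span of 29.42 kb and 13.16 kb of summed peak width. It ranked 354 of 17049 joined regions by summed width, and was among the 879 past the point of slope 1 on the ranked curve, at 7.99 kb. The bodies of 7.58% of coding genes touched such a region, and PAX9 was the only PAX gene of which this held. This ranking used peak width because the list has no signal, so it is not a super-enhancer call. The neighbouring region at SLC25A21, with 11.05 kb of summed width, ranked 487 and did not reach the PAX9 body.

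PAX1, the paralog of PAX9 and a regulator of the sclerotome (ENSG00000125813.15, chr20:21705659-21718481, plus strand), had no peak at its locus. Its 4 start sites lay 96.78 to 99.39 kb from the nearest peak, and its outermost start was in a peak-free interval of 1740.5 kb, the longest of the family. An outermost start in an interval at least this long was found for 2.6% of coding genes. By this measure PAX1 and PAX9, whose outermost start lay in a peak, stood at the ends of the family. This comparison was made after the values were seen. By the distance from a start to the nearest peak, PAX2 and PAX7 lay farther than PAX1.

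PAX3, the neural crest and muscle precursor factor (ENSG00000135903.20, chr2:222199887-222298998, minus strand), had 2 peaks of 1640 bases in all. The peak inside the gene, chr2:222290991-222291520, was 530 bases wide, lay in intron 4 of the canonical transcript and began 7.48 kb downstream of the outermost start. It counted as a promoter peak through the start of a PAX3 transcript without a defined coding sequence, 2674 bases away. None of the 14 PAX3 start sites lay in a peak. Of the coding genes with a promoter peak, 96.5% had one at least as wide. The other peak, chr2:222319321-222320430, of 1110 bases, lay 20.3 kb upstream, within 3 kb of starts of the non-coding gene CT75 and of ENSG00000288658. The outermost PAX3 start thus lay in a peak-free interval of 27.8 kb between the pair of peaks. Because PAX3 is the member best known in melanocytes, its start window (RefSeq, GRCh38.p14, chr2:222298949-222299248, minus strand, its 21 CG in capitals) and 300 bases of its intron peak (hg38, chr2:222291106-222291405, minus strand, with the SOX letters ACAATGG in capitals) are printed here.
PAX3 start, outside any peak: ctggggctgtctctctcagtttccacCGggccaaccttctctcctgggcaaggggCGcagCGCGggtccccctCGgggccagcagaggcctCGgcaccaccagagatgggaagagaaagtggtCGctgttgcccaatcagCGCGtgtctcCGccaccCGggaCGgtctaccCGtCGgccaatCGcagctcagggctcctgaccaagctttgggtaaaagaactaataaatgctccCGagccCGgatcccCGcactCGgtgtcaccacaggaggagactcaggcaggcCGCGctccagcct
PAX3 intron peak: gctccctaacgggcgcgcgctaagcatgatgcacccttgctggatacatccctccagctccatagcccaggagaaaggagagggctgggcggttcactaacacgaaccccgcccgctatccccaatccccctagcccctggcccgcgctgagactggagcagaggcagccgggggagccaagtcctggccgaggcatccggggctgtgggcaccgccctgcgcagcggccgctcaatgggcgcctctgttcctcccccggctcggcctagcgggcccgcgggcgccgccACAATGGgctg

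PAX7, the paralog of PAX3 that marks muscle satellite cells (ENSG00000009709.12, chr1:18630846-18748866, plus strand), had no peak within 50 kb. Its 3 start sites were the farthest from a peak in the family, at 270.61 to 271.29 kb, and the peak-free interval around the outermost start measured 1313 kb, with 4.17% of coding genes in one at least as long. The neighbour TAS1R2, a taste receptor gene, had no promoter peak either. The start window of PAX7 (RefSeq, GRCh38.p14, chr1:18630596-18630895, plus strand) is shown with its 21 CG in capitals, since its ratio of observed to expected CG was the highest of the 9 canonical starts (1.07, beside 1.064 for PAX6).
PAX7 start, outside any peak: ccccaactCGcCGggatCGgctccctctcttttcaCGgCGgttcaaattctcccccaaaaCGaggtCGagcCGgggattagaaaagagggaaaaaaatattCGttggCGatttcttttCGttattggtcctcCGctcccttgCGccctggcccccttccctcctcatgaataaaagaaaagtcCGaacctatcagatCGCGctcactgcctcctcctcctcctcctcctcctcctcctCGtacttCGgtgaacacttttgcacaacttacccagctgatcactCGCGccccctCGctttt

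PAX8, a factor of thyroid and kidney (ENSG00000125618.18, chr2:113215997-113278921, minus strand), had 4 peaks with 2610 bases. A pair of them lay near the 3' end of the gene, 59.76 to 61.33 kb downstream of the outermost start and 220 bases apart. The peak chr2:113217591-113218370, of 780 bases, fell wholly in the untranslated part of exon 12. The peak chr2:113218591-113219160, of 570 bases, had 551 bases in the intron before it and 19 coding bases of exon 12. They counted as promoter peaks through a PAX8 transcript with a retained intron that starts 1317 bases from the nearer of them, and they also lay in the overlapping gene PAX8-AS1 of the other strand. Peaks carry no strand, so the signal of the overlapping genes cannot be told apart. The outermost PAX8 start lay 45.94 kb from the nearest peak. The remaining pair lay at the starts of other genes, with 820 bases at PSD4, an exchange factor for ARF proteins, and 440 bases at the non-coding gene LINC02966.

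PAX2, a kidney and optic nerve factor (ENSG00000075891.24, chr10:100735396-100829944, plus strand), had no peak at its locus, and its 8 start sites lay 163.4 to 176.85 kb from the nearest. That peak was the promoter peak of its neighbour SLF2, 1210 bases wide. PAX5, the B cell commitment factor (ENSG00000196092.14, chr9:36833269-37034268, minus strand), had 1 peak of 1210 bases at its locus, chr9:37079471-37080680, at the starts of the non-coding genes EBLN3P and ENSG00000260100. No peak lay in the 201 kb of the PAX5 body. Its neighbour ZCCHC7, which encodes a zinc finger protein of RNA turnover, had 4 promoter peaks with 7520 bases in all.

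PAX4, an islet beta cell factor (ENSG00000106331.19, chr7:127610292-127618142, minus strand), had 3 peaks of 3670 bases at its locus and none in its body. Every one of them lay at starts of other genes. The peaks of 980 and 1270 bases, chr7:127584921-127585900 and chr7:127587841-127589110, lay at GCC1, a Golgi protein gene, and ARF5, a small GTPase gene of vesicle traffic. The wider of them was also within 3 kb of a start of FSCN3, a fascin gene. The peak of 1420 bases, chr7:127651321-127652740, lay at SND1 and SND1-DT. By bases at the locus PAX4 was second in the family, with 47.2% of coding genes above it, although its nearest start was 26.1 kb from a peak. PAX6, the eye and islet factor (ENSG00000007372.25, chr11:31784779-31817961, minus strand), had no peak at its locus. Its 66 start sites, the most of any member, lay 84.79 to 108.62 kb from a peak. The neighbour ELP4, an Elongator subunit gene whose body overlaps the PAX6 end, had 1 promoter peak of 750 bases. On the start side of PAX6, the overlapping gene ENSG00000285283 of the plus strand had no promoter peak. Its body held 4 peaks, all outside the PAX6 locus.

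Of the 124 annotated start sites in the family, 5 lay in a peak, all of PAX9, and 7 lay within 3 kb of one. The members on either side of the 3 kb limit were PAX3, at 2.67 kb, and PAX4, at 26.1 kb. The order of the shortest distance from a start to a peak was PAX9, PAX8, PAX3, PAX4, PAX5, PAX6, PAX1, PAX2 and PAX7, and none of these distances has a replicate error.

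**Figure D3:**
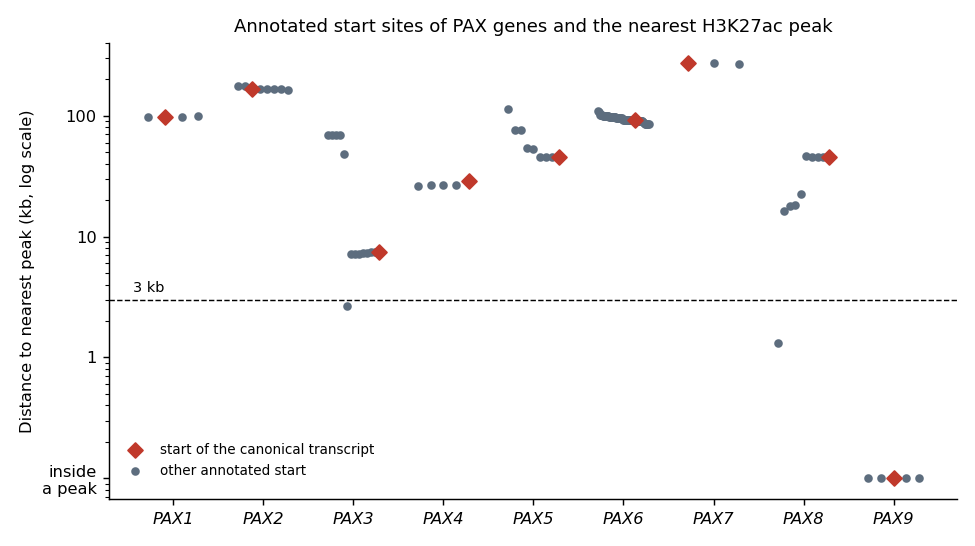
Distance in kb from each annotated start site of the 9 PAX genes to the nearest peak, on a log axis, with the canonical start as a diamond, other starts as dots, and a dashed line at 3 kb. The 5 PAX9 starts are inside a peak, 1 start each of PAX3 and PAX8 lies under the line, and every other start is above it.

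**Figure D4:**
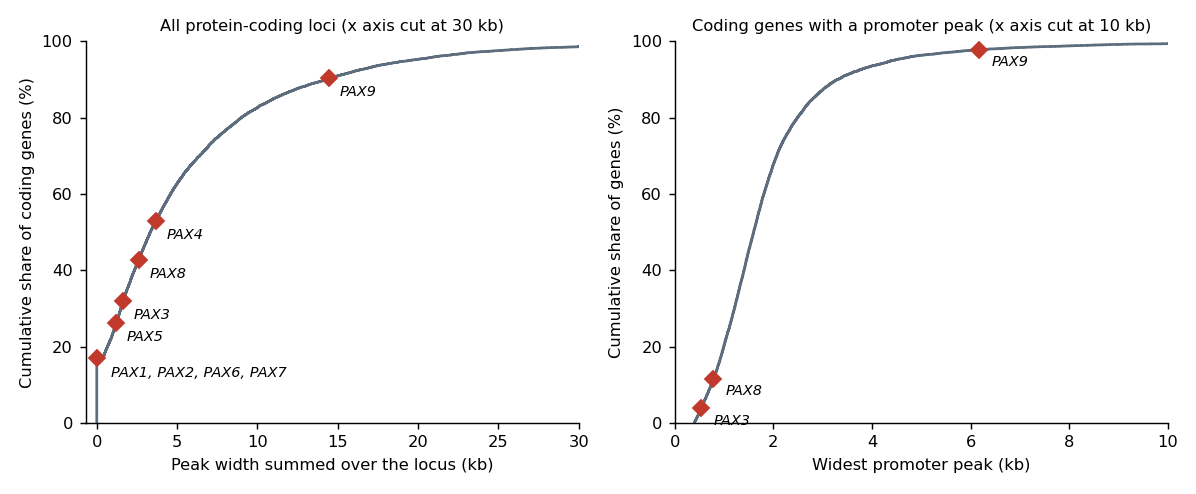
Cumulative share of protein-coding genes, in percent, against the peak width summed over the locus in kb (left) and of genes with a promoter peak against the width of the widest one in kb (right), with the PAX genes as diamonds. PAX9 sits near the top of both curves, PAX3 and PAX8 near the bottom of the right one, and PAX1, PAX2, PAX6 and PAX7 at 0 on the left.

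The CpG content of the canonical starts was then read from hg38 for all coding genes, as the observed over the expected number of CG in the 300 bases from 250 before to 50 after the start. This measure was chosen after the peaks had been seen. At or above a ratio of 0.6, 81.4% of 13498 coding genes had a promoter peak, and below it 26.2% of 6535. Of the PAX genes, 5 were at or above 0.6, and 1 of them, PAX3 at 0.673, had a promoter peak. The other members in this class were PAX1 at 0.79, PAX5 at 0.949, PAX6 at 1.064 and PAX7 at 1.07. PAX6 and PAX7 had higher ratios than 93.9% and 94.4% of coding genes. Below 0.6 were PAX2 at 0.578, PAX9 at 0.556, PAX8 at 0.483 and PAX4 at 0.079, and PAX8 and PAX9 of these had promoter peaks. The promoter peaks of PAX3 and PAX8 lay at other starts, 7.48 kb and 59.76 kb downstream of the canonical start at which the ratio was read, so by the canonical start itself only PAX9 had a peak. The ratio at the outermost PAX9 start, in the first window printed above, was 0.993. The 9 genes are too few to compare the classes.

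**Figure D5:**
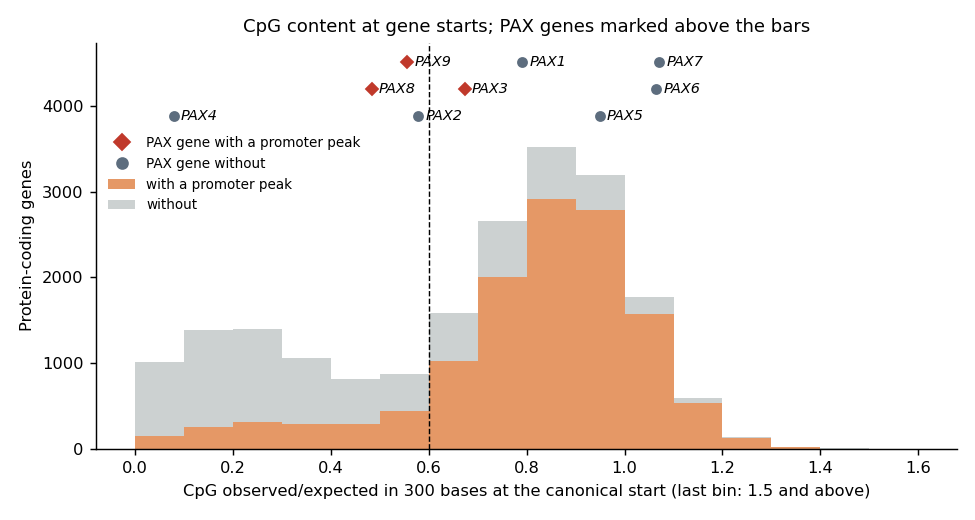
Number of protein-coding genes by CpG observed over expected ratio at the canonical start, in bins of 0.1, split into genes with and without a promoter peak, with the PAX genes marked above the bars. PAX5, PAX6 and PAX7 lie in the CpG-rich range without a promoter peak, and PAX8 and PAX9 lie under the dashed line at 0.6 with one, which for PAX3 and PAX8 is at a start other than the canonical one.

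Motifs were searched on both strands of the central 400 bases of the 15 PAX peaks and of all peaks. The ATF/CREB site TGACGTCA, the letters bound by ATF1, was in none of the PAX peak centres, beside 0.89% of all peaks, and the flexible form TGANNTCA, which includes it, in none, beside 16.6%. The AP1 site TGAGTCA (5.31% of all peaks), the paired domain core GTCACGC (2.11%), the inner letters AATNNATT of a paired homeodomain site (7.61%) and the E-box CACGTG (6.85%) were also absent from the 15 centres. CATGTG was in 1 PAX centre, at PAX8 (15.8% of all peaks), ACAAAG in 1, at the exon 4 peak of PAX9 (20.5%), and ACAATGG in 1, the PAX3 intron peak printed above (3.73%). Over whole peaks, TGACGTCA was found in 1 of the 15, the peak of 980 bases at GCC1 (0.042 per kb beside 0.019 over all peaks). GTCACGC was in 1, the EBLN3P peak near PAX5 (0.042 per kb beside 0.052). TGANNTCA occurred 6 times in 3 whole peaks, those at GCC1 and SND1 and the PAX9 peak of 6170 bases, or 0.254 per kb beside 0.466 over all peaks. CACGTG was in 3 peaks, that at EBLN3P and the PAX9 peaks of 6170 and 1500 bases (0.127 per kb beside 0.192). TGAGTCA was in 1, at SLC25A21 (0.042 per kb beside 0.15), and AATNNATT in none, beside 0.249 per kb over all peaks. With 15 peaks, these counts cannot separate the family from the list.

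Genes known to act with or under PAX factors were counted in 6 lists. Of the 59 genes, 28 had a promoter peak, which is 47.5% beside 63.4% of all coding genes. Among the PAX network partners of the sine oculis homeobox, EYA and DACH families it was 8 of 12, among them SIX5 with a peak of 4790 bases, and SIX3, SIX6, EYA2 and DACH2 had none. Among targets of PAX3 and PAX7 it was 9 of 14, with the melanocyte regulators SOX10 (widest peak 18040 bases) and MITF (3390) and the pigment enzyme gene DCT (3890) among them. TYRP1, the muscle factors MYF5 and MYOD1, the receptor gene CXCR4 and NEUROG2 had none. The B cell genes of PAX5 had 3 of 8 (EBF1, CD22 and VPREB3), and the kidney and thyroid genes of PAX2 and PAX8 had 2 of 9, the regulator GATA3 and the receptor gene TSHR. The sclerotome and tooth genes of PAX1 and PAX9 had 2 of 6, NKX3-2 and MSX1. The cell type label was checked with the same measure. Of 8 melanocytic markers, 7 had a promoter peak and TYR did not. None of 8 markers of B cells, thyroid, kidney, islet or skeletal muscle had one. The marker choice limits this check. MITF, SOX10 and DCT were counted both here and as PAX3 and PAX7 targets, and TYRP1, without a promoter peak, was not among the melanocytic markers. Likewise CD22 and TSHR, which had promoter peaks, were not among the markers of other cell types.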

How the data were processed

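H3K27ac ChIP-seq was carried out on 3 ChIP and 3 input replicates of SU-CCS-1, grouped by their titles. Reads were aligned to hg38 by the authors with BWA-MEM (0.7.10-r789), duplicates were removed with samtools, broad peaks were called with MACS2 (2.2.6) over input, and denylisted regions were taken out, with versions as the submitters' processing notes give them. The authors deposited 1 list with 4 columns (chromosome, start, end and name), so the values used here are positions, without a score, count or p-value. Whether reads or calls of the replicates were merged is not given in the sources used here. Broad calling and the calling cutoff set the width and number of peaks, and the narrowest peak had 400 bases.

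Peaks were joined to GENCODE 44 genes with python 3.11.15 and numpy 2.4.6, with an overlap of at least 1 base, and figures were drawn with matplotlib 3.10.9. Protein-coding genes were counted by gene ID. RefSeq start windows matched 8 of the 9 members, 19 windows in all, of which 2 overlapped a peak, and all 35116 windows in the table equalled hg38 at their coordinates. Joined regions linked peaks within 12.5 kb, as in the study, but were ranked by summed width. The interval code was tested on simulated intervals before use. Named genes were the 9 members, genes whose promoter window or body held a peak at a PAX locus, the marker genes, and list genes by count with examples and by name where 5 or fewer. Neighbouring genes within 100 kb of a PAX gene are also named, chosen after their values were seen. The result of 1 of the 6 gene lists is not reported here by itself. The members and lists were chosen with earlier results of these data known. With 1 list and no values per sample, no significance test was run, and intervals for depth could not be given. Alternatives changed the promoter window, the flank, the transcripts used, the peak widths kept, the joining distance and the motif window.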

Additional observations from a re-analysis of the deposited data

How the results depend on the processing

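The list has no depth, signal or replicate values, so no replicate could be left out and no result has an error. No paired analysis was possible because replicates have no column of their own, although ChIP and input share replicate numbers. Of 41 alternatives over 8 results, 20 changed the value by less than 1.5 times and 21 by more. The count of 3 PAX genes with a promoter peak fell to 1, PAX9, with a window of 1 kb, with starts of protein-coding transcripts only, and with the widest 50% or 25% of peaks. For all coding genes it went from 12701 to 5384 with the widest 25%, and for the 59 list genes from 28 to 15 and 12 with the widest 50% and 25%. The 15 peaks at PAX loci became 7 with a flank of 10 kb, 24 with 100 kb, 6 in gene bodies, 8 nearest to a PAX start, and 8 and 2 among the widest 50% and 25%. Their 23590 bases became 15040, 38680, 14200 and 15480 under the same 4 choices of region and 10820 with the widest 25%. PAX genes with a body peak fell from 3 to 1 with the widest 50% and 25%. Each of these settings changed the region, the peaks entered or, with starts of protein-coding transcripts only, the start sites counted. That last setting left out the transcripts through which PAX3 and PAX8 had been counted. Motif matches went from 0.5 per kb in peak centres to 1.44 per kb over whole peaks, and the cause was not tested. PAX9 kept its joined region past the point of slope 1 in all 5 rankings, at ranks 209 to 532. The rankings differ in length, so these ranks are not on the same scale. Rank 209 was among 8165 regions with 460 past the point, and rank 532 among 13629 with 726 past it.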
